A study of Mus musculus with 8 samples.

Results

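The 10 genes described here encode chaperones and quality-control proteases of mitochondria, namely Hspd1, Hspe1, Hspa9, Trap1, Dnaja3, Lonp1, Clpp, Clpx, Yme1l1 and Afg3l2. They were chosen by name for their role, with earlier results of these data known, and make up 10 of the 50599 gene records in each library. All 10 had enough reads to be tested, as did 19959 of the records. RNA sequencing was done on whole hearts of male C57BL/6N mice aged 12 weeks, in 4 libraries labelled wildtype and 4 labelled Lrpprc knockout. Lrpprc encodes an RNA-binding protein that stabilises mitochondrial mRNAs together with its partner Slirp. The knockout mice carried loxP-flanked Lrpprc alleles and a Cre recombinase active in heart and skeletal muscle, and the controls carried the same loxP-flanked alleles without Cre. The Cre driver is not given in the sources used here, and a whole heart also holds cells in which the gene is not deleted.

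Most mitochondrial proteins are made in the cytosol, pass the membranes unfolded and must be folded again inside. Mitochondrial Hsp70 pulls in and holds the incoming chains, the Hsp60 and Hsp10 chaperonin encloses and folds them, and ATP-driven proteases of the matrix and inner membrane remove proteins that stay unfolded, are damaged or lack their partners. When such proteins build up, cells can raise the transcription of these nuclear genes, a reaction known as the mitochondrial unfolded protein response, to which the transcription factors Atf4, Atf5 and Ddit3 have been linked.

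The promoters of the genes were read from RefSeq windows (GRCm38.p6) of 250 bases before to 50 bases after each start. The table held 32851 windows of 27025 genes, and 8 of the 10 genes were in it with 9 windows, those without an entry being Hspa9 and Afg3l2. Hspd1 and Hspe1 lie head to head on chromosome 1, so their windows share bases, and both hold a run of heat shock units. It is shown because the genes for both parts of the chaperonin flank it. In addition, no other member that had a window held more than 1 unit of this kind. The capitals mark the overlapping units TTCNNGAA, GAANNTTC and TTCNNGAA, on the plus strand at chr1:55088053-55088082.

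Hspd1 and Hspe1: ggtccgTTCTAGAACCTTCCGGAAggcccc

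The run of 18 bases began 89 bases before the RefSeq start of Hspe1 and 127 bases from that of Hspd1. A longer annotated Hspd1 transcript starts beyond it and covers it with an exon. The unit GAANNTTC occurred in 7.86% of all windows and TTCNNGAA in 8.52%, searched on both strands, and Clpp held 1 TTCNNGAA unit after its start. The 100 bases before the start of Lonp1 (minus strand, chr17:56626904-56627003) are shown because Lonp1 changed most. The 100 bases before that of Clpx (plus strand, chr9:65294160-65294259) are shown because they hold the NRF1 core GCGCATGC, in capitals on the opposite strand. No exon of the same gene overlapped either stretch.

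Lonp1: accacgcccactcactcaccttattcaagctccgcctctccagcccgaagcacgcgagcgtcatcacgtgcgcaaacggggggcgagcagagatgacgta
Clpx: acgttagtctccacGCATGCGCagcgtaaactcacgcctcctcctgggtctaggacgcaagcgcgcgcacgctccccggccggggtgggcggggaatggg

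The NRF1 core was in 2.71% of all windows and, among the members that had a window, in that of Clpx alone. The cAMP response element TGACGTCA was in 1.79% of windows and in that of Trap1. The amino acid response element core TGATGNAA, in 3.97% of windows, and the oestrogen-related receptor site TCAAGGTCA, in 0.423%, were in none of the 9 windows. A match of letters is a description and not a measured site.

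The libraries held 35218541 to 47743376 expected counts, and the 10 genes made up 0.0745% to 0.0815% of them in wildtype and 0.103% to 0.118% in knockout libraries. Mitochondrial rRNA took 44.0% to 46.9% of counts in wildtype and 65.6% to 67.8% in knockout libraries. Values below are therefore normalised counts by median-of-ratios size factors, which follow the typical gene rather than the total. The targeted gene Lrpprc (ENSMUSG00000024120.12) had normalised counts of 3607, 3946, 3424 and 3682 in wildtype and 597, 504, 605 and 601 in knockout replicates 1 to 4. Each knockout library fell below the whole wildtype range (log2 fold change -2.67, SE 0.10, DESeq2, adjusted p = 3.77e-153). By the study's methods the libraries came from 4 control and 4 knockout hearts, so p-values measure the spread between animals.

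Among the 10 genes, 7 were higher in the knockout and 0 were lower by DESeq2 at an adjusted p under 0.05. Of all records tested, 18.2% were higher and 15.5% were lower. The genes were well expressed, with means from 502 to 16249 normalised counts, and of the 5580 records whose mean was 400 or more, a minimum chosen after those means were seen, 30.4% were higher and 22.5% lower. The median log2 fold change was 0.55 over the 10 genes, 0.005 over all records tested and 0.06 over the 5580 well-expressed ones. By edgeR 6 were higher and 0 lower, against 20.1% and 19.6% of the records that edgeR tested. At an unadjusted p under 0.05, 0 of the 10 were lower by DESeq2 and 1 by edgeR, which was Clpp. In 7 genes all 4 knockout libraries exceeded all 4 wildtype libraries, as in 16.7% of records tested, and in 0 they all lay below, as in 16.4%. Knockout replicate 3 was the highest knockout library for every one of the 10 but Dnaja3, and without it 7 were still higher, with a median log2 fold change of 0.38. Without that library 3722 of 19200 records tested were higher and 3300 lower.

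The scale mattered to these counts. The median gene, taken over the 15754 records with a mean of 10 or more normalised counts, had a log2 fold change of 0.02 in the main analysis. When libraries were scaled by total counts, this median moved to -0.28, with 1924 records higher and 5912 lower against 3628 and 3100 in the main analysis, and 3 of the 10 genes were higher and 2 lower. When mitochondrial rRNA was left out of the totals, the median moved to 0.44, with 7950 higher and 1111 lower, and 9 of the 10 genes were higher. Lonp1, Hspa9 and Afg3l2 were higher under both.

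**Figure D1:**
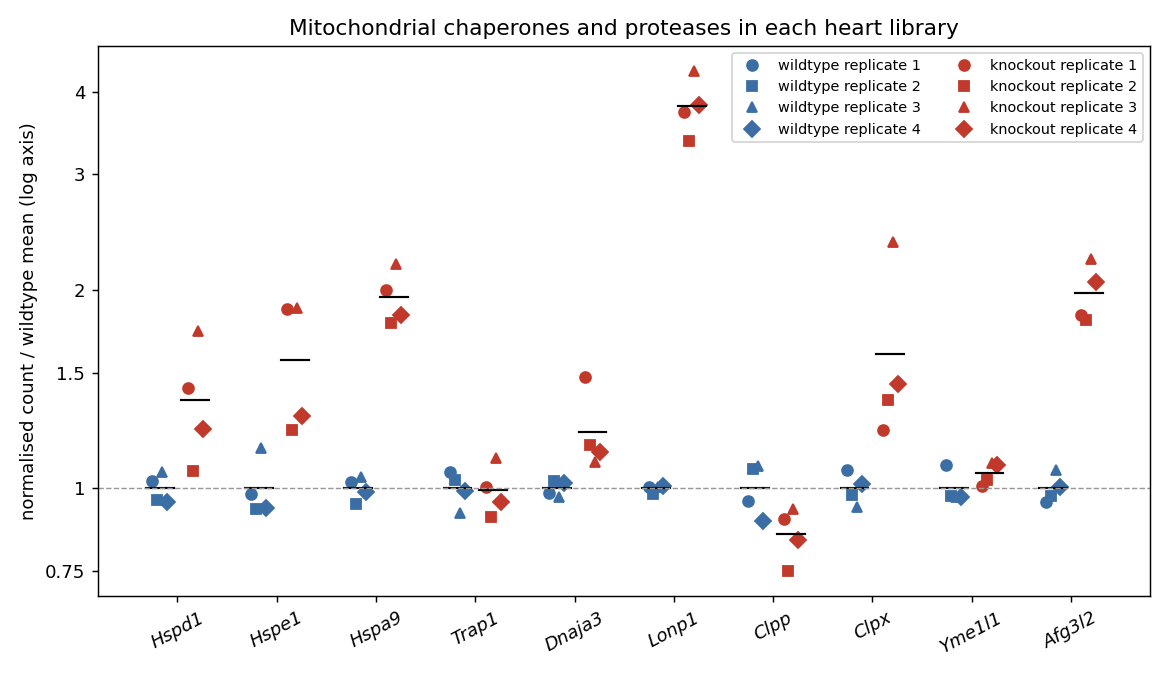
Normalised count of each gene divided by its wildtype mean (log axis), 1 point per library with a symbol for each replicate number, blue for wildtype and red for knockout, and a bar at each group mean. Lonp1 sits far above the rest at 3.81 times the wildtype mean, Trap1, Yme1l1 and Clpp have overlapping groups, and knockout replicate 3 is the highest red point for each gene except Dnaja3.

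Among the chaperones, mitochondrial Hsp70 changed most. Hspa9 (ENSMUSG00000024359.8, chromosome 18 from 34937414 to 34954357, minus strand, GRCm38) encodes mitochondrial Hsp70, the motor of protein import. Its normalised counts were 11248, 10435, 11466 and 10854 in wildtype and 22055, 19613, 24153 and 20167 in knockout replicates 1 to 4. The groups did not overlap, and the lowest knockout library exceeded the highest wildtype library by more than the whole wildtype range. Hspa9 was 1.95-fold higher (log2 fold change 0.97, SE 0.094, DESeq2, adjusted p = 9.27e-23).

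Dnaja3 (ENSMUSG00000004069.16, chromosome 16 from 4639989 to 4707695, plus strand) encodes a J-domain co-chaperone that brings substrates to Hsp70 and drives its ATP hydrolysis. The wildtype libraries held 1904, 1983, 1874 and 1969 normalised counts of it and the knockout libraries 2855, 2252, 2121 and 2192, in the order of replicates 1 to 4. The groups did not overlap, but knockout replicate 1 stood above the other 3, which lay close to the wildtype. The log2 fold change was 0.29 (SE 0.12, DESeq2, adjusted p = 0.0429), turned to -0.012 under total-count scaling, and did not pass the threshold by edgeR (adjusted p = 0.0673). Without knockout replicate 1 it was 0.18 (adjusted p = 0.0679), and the call was lost in 6 of the 8 fits with 1 library left out, among them each without a wildtype library (adjusted p from 0.0871 to 0.126).

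Within each library the ratio of Dnaja3 to Hspa9, taken between TPM values, which are levels per transcript length, does not depend on how libraries are scaled. It was 0.205, 0.230, 0.198 and 0.219 in wildtype and 0.157, 0.139, 0.106 and 0.132 in knockout replicates 1 to 4. All knockout ratios lay below all wildtype ratios, with a difference of -0.69 on the log2 scale (exact permutation test over 70 assignments, two-sided p = 0.0286, adjusted over 5 ratios p = 0.0358, where 0.0286 is the smallest p this design allows). Dnaja3 mRNA was thus lower relative to Hspa9 mRNA in every knockout library.

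Grpel1, the nucleotide exchange factor that resets Hspa9, was 1.54-fold higher (log2 fold change 0.62, SE 0.13, DESeq2, adjusted p = 1.97e-05). Its normalised counts were 1205, 1210, 1274 and 1307 in wildtype and 1763, 1737, 2420 and 1765 in knockout replicates 1 to 4. Every knockout library lay above the wildtype range, and knockout replicate 3 stood above the other 3. The ratio of Grpel1 to Hspa9 fell from 0.0965 ± 0.00490 (SD, n = 4) to 0.0756 ± 0.00709 (SD, n = 4) with no overlap, a log2 difference of -0.36 (exact permutation test, two-sided p = 0.0286, adjusted p = 0.0358). Grpel2, a second exchange factor, was at 342 to 428 normalised counts in wildtype and 1095 to 1661 in knockout libraries, which is 3.62-fold higher (log2 fold change 1.86, SE 0.15, DESeq2, adjusted p = 1.92e-32).

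The coefficients of variation of the chaperonin genes among knockout libraries were 21.2% for Hspd1 and 22.9% for Hspe1 against 9.57% for Hspa9. Hspd1 (ENSMUSG00000025980.14, chromosome 1 from 55077835 to 55088243, minus strand) encodes Hsp60, the subunit of the folding chamber. Hspd1 had normalised counts of 5688, 5320, 5870 and 5284 in wildtype and 7884, 5894, 9619 and 6825 in knockout replicates 1 to 4. The groups did not overlap, but knockout replicate 2 lay only just above the highest wildtype library, at 5894 against 5870. Hspd1 was 1.36-fold higher (log2 fold change 0.45, SE 0.15, DESeq2, adjusted p = 0.0114), and under total-count scaling the value was 0.14 and did not pass.

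Hspe1 (ENSMUSG00000073676.4, chromosome 1 from 55088132 to 55091307, plus strand) encodes Hsp10, the lid of the chamber, and its annotated span overlaps that of Hspd1 on the other strand by the ends with the starts. The libraries were counted by strand, so reads of the 2 genes could be told apart there. Hspe1 had normalised counts of 1137, 1078, 1333 and 1083 in wildtype and 2169, 1419, 2174 and 1493 in knockout replicates 1 to 4. The knockout libraries fell into a higher pair, replicates 1 and 3, and a lower pair, replicates 2 and 4, all above the wildtype. The gene was 1.57-fold higher (log2 fold change 0.65, SE 0.17, DESeq2, adjusted p = 0.000851), and under total-count scaling the value was 0.34 and did not pass (adjusted p = 0.0572).

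The ratio of Hspe1 to Hspd1 in TPM was 0.677, 0.687, 0.769 and 0.695 in wildtype and 0.932, 0.815, 0.766 and 0.741 in knockout replicates 1 to 4. The groups overlapped, and the log2 difference of 0.20 did not pass the test (exact permutation test, two-sided p = 0.0857, adjusted p = 0.0857). It was 0.13 without knockout replicate 1. The genes most like Hspd1 over the 8 libraries, by the correlation of log2 normalised counts among 10437 records, were Ccdc86 (r = 0.987), Psme3 (r = 0.985) and Usp30 (r = 0.982). These 8 points share the split into 2 genotypes, so the correlations are a description and carry no test.

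Trap1 (ENSMUSG00000005981.11, chromosome 16 from 4039971 to 4077827, minus strand) encodes the Hsp90 of mitochondria. Per library, Trap1 stood at 2057, 2003, 1783 and 1927 normalised counts in wildtype and 1954, 1756, 2160 and 1850 in knockout replicates 1 to 4. Both the highest and the lowest value came from knockout libraries and the groups overlapped. The log2 fold change was -0.01 (95% interval -0.21 to 0.19, DESeq2, adjusted p = 0.958), an interval within which changes of the size seen for Hspa9 do not fall. Under the scalings by total count it was -0.31 (adjusted p = 0.00121) and, without mitochondrial rRNA, 0.41 (adjusted p = 1.98e-06), which are -0.03 and -0.03 relative to the median gene.

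**Figure D2:**
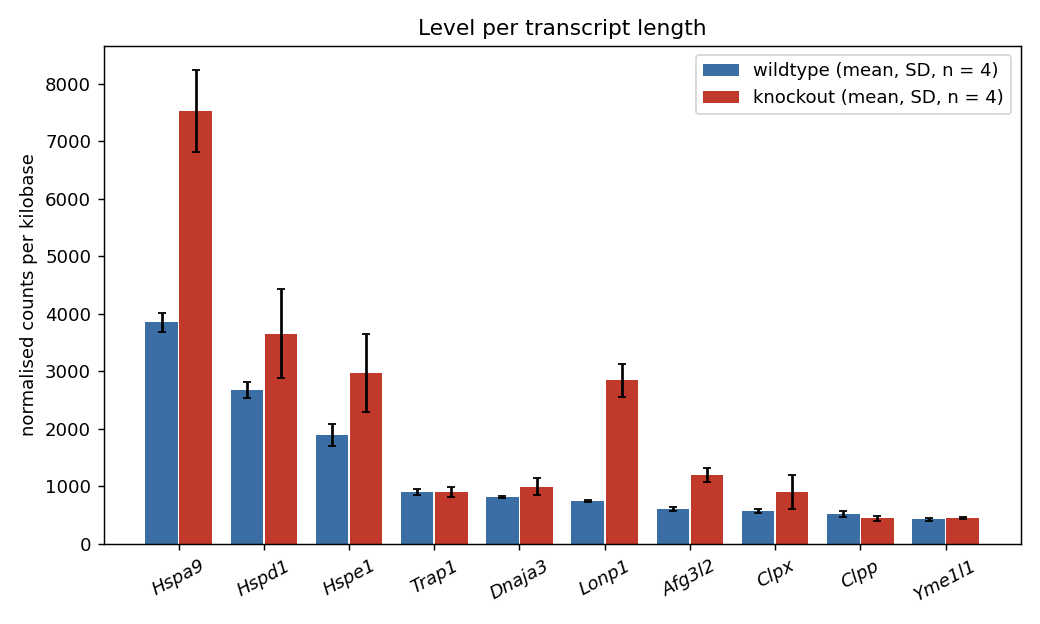
Mean normalised counts per kilobase of effective transcript length in wildtype (blue) and knockout (red), with error bars of 1 SD over 4 libraries, ordered by the wildtype level. Hspa9 is highest in both groups, and Lonp1 goes from 748 in wildtype to 2848 in knockout, near Hspe1 at 2973.

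Per kilobase of transcript, the chaperones Hspa9, Hspd1 and Hspe1 had the highest wildtype levels, at 3853 ± 159, 2681 ± 138 and 1898 ± 196 normalised counts per kilobase (SD, n = 4), and their ranges did not overlap. Trap1 at 907 ± 55.6 and Dnaja3 at 819 ± 22.1 overlapped each other. Lonp1 followed at 748 ± 8.89, below both and above Afg3l2 at 608 ± 30.0. Afg3l2, Clpx and Clpp formed a chain of overlapping ranges from 464 to 649, and Yme1l1 was lowest at 428 ± 24.0. In the knockout Lonp1 moved from the sixth to the fourth place, at 2848 ± 289, where its range overlapped that of Hspe1 and stood clear of Afg3l2 at 1207 ± 123.

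The proteases did not move as a group. Lonp1 (ENSMUSG00000041168.9, chromosome 17 from 56614297 to 56626887, minus strand) encodes the Lon protease of the matrix, which removes oxidised and misfolded proteins and binds mitochondrial DNA. Its normalised counts were 2100, 2054, 2102 and 2107 in wildtype and 7804, 7043, 9008 and 8009 in knockout replicates 1 to 4. The wildtype libraries lay within a narrow span from 2054 to 2107, and no knockout library was below 7043. Lonp1 was 3.81-fold higher (log2 fold change 1.93, SE 0.096, DESeq2, adjusted p = 5e-87), the largest change of the 10. Relative to the median gene it stayed between 1.81 and 1.97 over the 17 alternative settings. The genes most like it over the 8 libraries were Eprs, Gars and Uba3, each at r = 0.999, and Eprs and Gars encode tRNA synthetases. Their log2 fold changes were 2.12, 2.93 and 0.83. Here too the points share the split by genotype, so the correlations carry no test.

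The ClpXP protease has an unfoldase ring, Clpx, that feeds proteins into a peptidase chamber, Clpp. Clpx (ENSMUSG00000015357.10, chromosome 9 from 65294260 to 65330658, plus strand) had normalised counts of 1566, 1436, 1374 and 1491 in wildtype and 1800, 2002, 3472 and 2115 in knockout replicates 1 to 4. All knockout libraries lay above the wildtype, with knockout replicate 3 far above the other 3. Clpx was 1.60-fold higher (log2 fold change 0.68, SE 0.20, DESeq2, adjusted p = 0.0026), and when knockout replicate 3 was left out the log2 fold change was 0.43 (adjusted p = 3.06e-05). Under total-count scaling it was 0.37 and did not pass (adjusted p = 0.084).

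Clpp (ENSMUSG00000002660.7, chromosome 17 from 56990305 to 56996188, plus strand) had normalised counts of 518, 580, 585 and 483 in wildtype and 487, 406, 505 and 452 in knockout replicates 1 to 4. Knockout replicate 2 was the lowest of all 8 and the groups overlapped. The log2 fold change was -0.23 (95% interval -0.47 to 0.01, DESeq2, adjusted p = 0.146). It passed as lower under total-count scaling and by limma on log2(TPM + 1), and turned to 0.20 when totals left out mitochondrial rRNA (adjusted p = 0.156).

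The ratio of Clpx to Clpp in TPM was 1.22, 1.003, 0.951 and 1.25 in wildtype and 1.50, 2.00, 2.79 and 1.89 in knockout replicates 1 to 4. No knockout ratio was as low as any wildtype ratio, and the mean went from 1.11 ± 0.152 to 2.04 ± 0.540 (SD, n = 4). The log2 difference was 0.86 (exact permutation test, two-sided p = 0.0286, adjusted p = 0.0358) and 0.70 without knockout replicate 3. Unfoldase and peptidase mRNAs thus did not change in step.

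The inner membrane carries 2 related AAA proteases that face opposite sides. Afg3l2 (ENSMUSG00000024527.9, chromosome 18 from 67404764 to 67449172, minus strand) is a subunit of the m-AAA protease, which faces the matrix and also matures the ribosomal protein Mrpl32. Its normalised counts were 1694, 1728, 1893 and 1788 in wildtype and 3262, 3205, 3969 and 3658 in knockout replicates 1 to 4. The groups were far apart, and Afg3l2 was 1.98-fold higher (log2 fold change 0.99, SE 0.10, DESeq2, adjusted p = 1.51e-20).

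Yme1l1 (ENSMUSG00000026775.9, chromosome 2 from 23156369 to 23199260, plus strand) encodes the i-AAA protease, which faces the intermembrane space and cleaves Opa1. Normalised counts of Yme1l1 were 1739, 1564, 1558 and 1555 in wildtype and 1617, 1654, 1754 and 1740 in knockout replicates 1 to 4. The groups overlapped through wildtype replicate 1 alone, which lay above the other 3 wildtype libraries. The log2 fold change was 0.08 (95% interval -0.09 to 0.24, DESeq2, adjusted p = 0.516) and turned to -0.22 under total-count scaling (adjusted p = 0.0605) and -0.05 by limma on log2(TPM + 1) (adjusted p = 0.62). Without mitochondrial rRNA in the totals it was 0.50 and passed as higher (adjusted p = 9.06e-09), which is 0.06 relative to the median gene.

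Spg7, another m-AAA subunit, was lower (log2 fold change -0.39, SE 0.13, DESeq2, adjusted p = 0.00995), a value that turned to 0.03 when totals without mitochondrial rRNA set the scale. Normalised counts of Spg7 were 1530, 1398, 1268 and 1372 in wildtype and 1006, 1077, 1270 and 902 in knockout replicates 1 to 4, so that knockout replicate 3 reached the lowest wildtype library. The ratio of Afg3l2 to Spg7 in TPM was 0.753, 0.842, 1.02 and 0.887 in wildtype and 2.21, 2.02, 2.13 and 2.76 in knockout replicates 1 to 4. Every knockout library held at least 2.02 Afg3l2 transcripts for each Spg7 transcript, and no wildtype library more than 1.02. The log2 difference of 1.38 was the largest of the 5 ratios (exact permutation test, two-sided p = 0.0286, adjusted p = 0.0358). The related gene Afg3l1, named after its value was seen and in no ratio, was higher (log2 fold change 0.48, SE 0.10, DESeq2, adjusted p = 2.24e-05). By total counts Afg3l1 was at 0.18 and did not pass (DESeq2, adjusted p = 0.175).

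**Figure D3:**
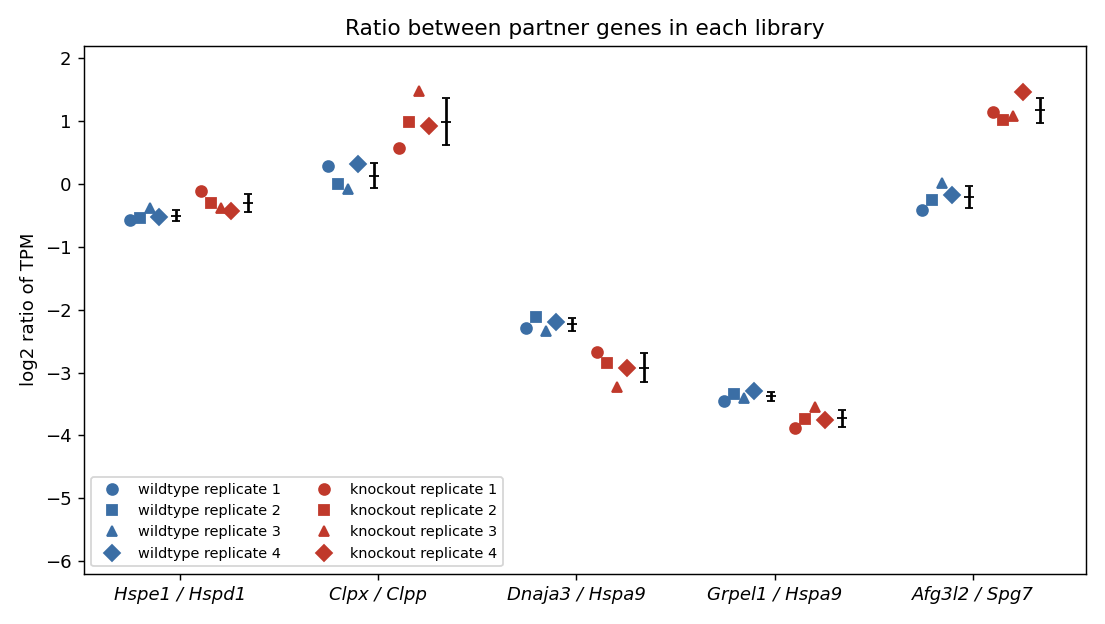
Log2 ratio of TPM between partner genes in each library, with blue points for wildtype, red for knockout, a symbol for each replicate number, and black bars for the mean and SD (n = 4). The groups separate in 4 ratios, upward for Clpx to Clpp and Afg3l2 to Spg7 and downward for Dnaja3 and Grpel1 to Hspa9, while Hspe1 to Hspd1 overlaps.

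The wider machinery held changes in both directions. Beside the counts of each list here and below stand 18.2% higher and 15.5% lower over all records tested. Among the 5580 well-expressed records these shares were 30.4% and 22.5%, and no list was tested against them. Of 10 other mitochondrial chaperones and co-chaperones, 5 were higher, 3 were lower and 2 did not pass (DESeq2), with a median log2 fold change of 0.48 against 0.005 over all records tested. By total counts 2 were higher and 3 lower (median 0.17), and without mitochondrial rRNA in the totals 7 were higher and 0 lower (median 0.90). Grpel2, Grpel1 and Hscb, the J-protein of iron-sulfur cluster transfer, changed most, Hscb being 1.55-fold higher (log2 fold change 0.63, SE 0.18, DESeq2, adjusted p = 0.00261). By total counts Hscb was at 0.34 and did not pass (DESeq2, adjusted p = 0.124). Those that were lower were Dnajc19 (-0.58), Bcs1l (-0.60) and Ppif (-0.41), given as log2 fold changes and named after their values were seen, with Ppif turning to 0.02 when totals left out mitochondrial rRNA.

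Of 16 other mitochondrial proteases and peptidases, 6 were higher, 6 were lower and 4 did not pass, with a median of 0.04. The scale set this split, with 2 higher and 8 lower by total counts and 9 higher and 0 lower when those totals left out mitochondrial rRNA. The metallopeptidase Nln was 2.80-fold higher (log2 fold change 1.49, SE 0.16, DESeq2, adjusted p = 6.11e-19) and the intermembrane-space protease Htra2 1.95-fold higher (0.96, SE 0.17, adjusted p = 7.85e-08). Oma1, the stress-activated protease that cleaves Opa1 and Dele1, was lower (-0.68, SE 0.19, adjusted p = 0.002), at 426 to 466 normalised counts in wildtype and 194 to 380 in knockout libraries. Of 4 membrane scaffolds of these proteases, Phb, Phb2, Stoml2 and Maip1, 0 passed by DESeq2 or edgeR, 1 was higher at an unadjusted p under 0.05 by DESeq2, and the log2 fold changes ran from -0.01 to 0.27. By total counts 1 of the 4 was lower, and all 4 were higher when totals left out mitochondrial rRNA.

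**Figure D4:**
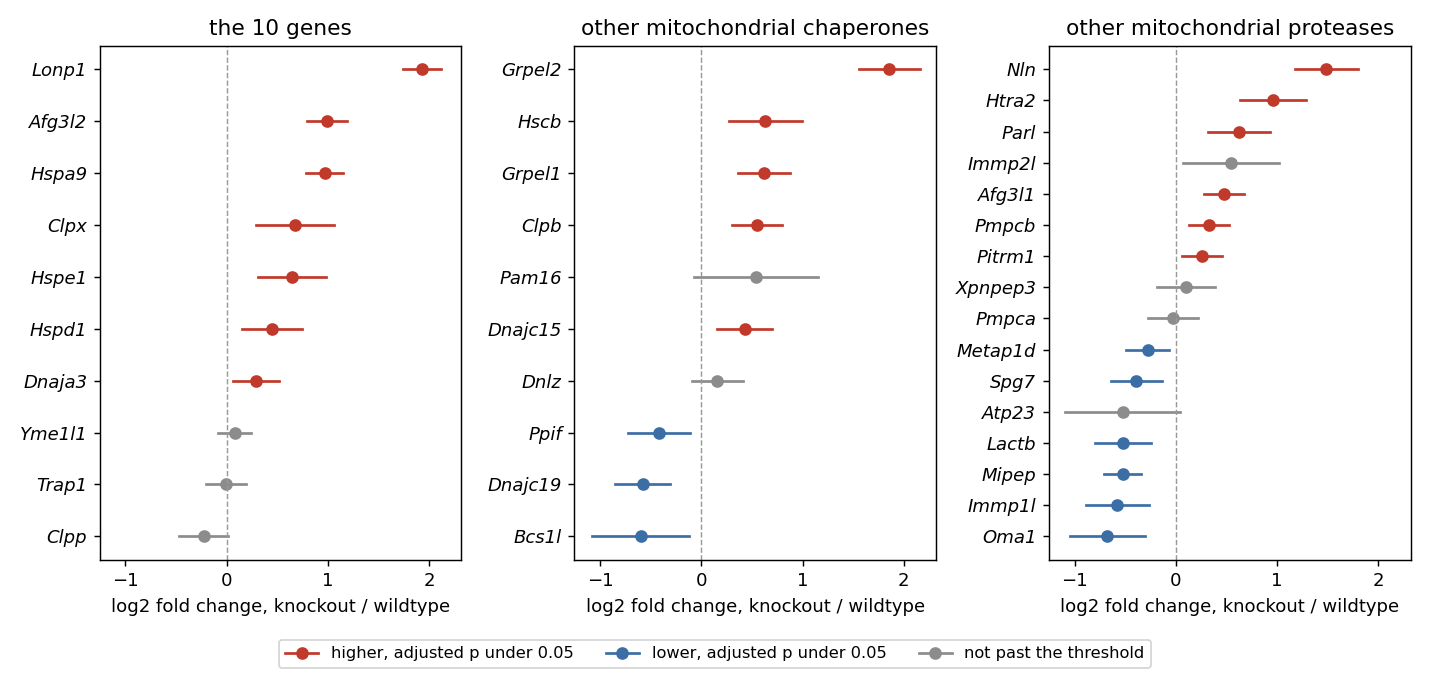
Log2 fold change, knockout against wildtype, with 95% interval (DESeq2, 4 libraries a group) for the 10 genes and for 2 lists of related mitochondrial genes, red where higher, blue where lower and grey where not past an adjusted p of 0.05. The 10 genes show 7 red and 0 blue points, while the 16 other proteases show 6 of each.

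Of 14 genes whose proteins are substrates of these proteases, 5 were higher, 2 were lower and 7 did not pass, with a median log2 fold change of 0.04. These are mRNA levels, and the amounts and cleavage of the proteins were not measured in these libraries. By total counts 3 were higher and 5 lower (median -0.27), and without mitochondrial rRNA in the totals 10 were higher and 1 lower (median 0.46). Star, the cholesterol importer that Lonp1 degrades, was at 15.5 to 38.2 normalised counts in wildtype and 64.5 to 296 in knockout libraries (log2 fold change 3.10, SE 0.43, DESeq2, adjusted p = 9.24e-12). Prelid1, a lipid carrier degraded by Yme1l1, was higher (1.25, SE 0.15, adjusted p = 1.34e-14). Pink1, the kinase that marks damaged mitochondria, was lower (-1.09, SE 0.14, adjusted p = 3.19e-14).

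Of 11 regulators linked to the mitochondrial unfolded protein response, 4 were higher, 3 were lower and 4 did not pass, with a median log2 fold change of -0.07. By total counts 4 were higher and 5 lower (median -0.37), and without mitochondrial rRNA in the totals 6 were higher and 1 lower (median 0.36). The transcription factors Ddit3 (2.68, SE 0.20, DESeq2, adjusted p = 2.87e-38), Atf4 (2.61, SE 0.14, adjusted p = 9.2e-75) and Atf5 (2.33, SE 0.14, adjusted p = 8.71e-57) changed most, by log2 fold changes larger than that of any of the 10 genes. Atf4 had 917 to 1109 normalised counts in wildtype and 5183 to 7339 in knockout libraries. Those that were lower were Dele1 (-0.87), Jun (-0.72) and Ubl5 (-0.44), given as log2 fold changes and named after their values were seen. Of these only Dele1 stayed lower without mitochondrial rRNA in the totals (-0.44, DESeq2, adjusted p = 0.000366). Hsf1, the heat shock factor, had a log2 fold change of -0.20 (adjusted p = 0.514) and is also named after its value was seen.

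Chaperones of the cytosol and endoplasmic reticulum were also compared. Of 21, 14 were higher, 4 were lower and 3 did not pass, with a median log2 fold change of 0.44. By total counts 7 were higher and 6 lower (median 0.14), and without mitochondrial rRNA in the totals 16 were higher and 0 lower (median 0.86). Among them Cct3, a subunit of the cytosolic chaperonin, was higher (0.86, SE 0.13, DESeq2, adjusted p = 6.21e-10), as was the inducible Hsp90 gene Hsp90aa1 (0.87, SE 0.20, adjusted p = 6e-05). Hspa1a, a heat-inducible Hsp70, was lower (-1.44, SE 0.45, adjusted p = 0.00553), with groups that overlapped at 87.6 to 300 and 28.8 to 126 normalised counts. Without mitochondrial rRNA in the totals Hspa1a was at -1.01 and did not pass (DESeq2, adjusted p = 0.0649). Hspa1b, of the same list and named after its value was seen, did not pass in the main analysis (-1.01, DESeq2, adjusted p = 0.0602). The 14 of 21 higher genes outside mitochondria stand beside 7 of 10 among the mitochondrial genes, or 7 of 21 beside 3 of 10 by total counts, and the difference between the lists was not tested.

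As a reference for mitochondrial content, 12 nuclear genes of the outer membrane, import and metabolism were listed. Of these 3 were higher, 1 was lower and 8 did not pass, with a median log2 fold change of -0.04. The reference moved with the scale too, to 1 higher and 7 lower by total counts (median -0.36) and to 8 higher and 0 lower without mitochondrial rRNA in the totals (median 0.37). Vdac2 (0.65, SE 0.094, DESeq2, adjusted p = 1.12e-10) and Tomm20 (0.52, SE 0.19, adjusted p = 0.0253) were higher and Idh2 was lower (-0.50, SE 0.18, adjusted p = 0.0233). The groups overlapped for Tomm20 and for Idh2. Tomm20 did not pass by total counts (0.20, DESeq2, adjusted p = 0.365). Idh2 did not pass without mitochondrial rRNA in the totals (-0.09, DESeq2, adjusted p = 0.709).

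Markers of several cell types moved with genotype as well. Of 7 cardiomyocyte markers 6 were lower and 0 higher, Tnnt2 not passing at a log2 fold change of -0.15, and their summed normalised counts were 991816 to 1105172 in wildtype and 464014 to 608553 in knockout libraries, so the tissue was rich in these defining markers in all 8. Of 7 fibroblast markers 4 were higher and 0 lower, Pdgfra (-0.06), Dcn (0.20) and Lum (0.62) not passing, with sums of 18172 to 18946 and 19171 to 64147. Of 6 macrophage markers 4 were higher and 0 lower, with sums of 3344 to 4517 and 3422 to 8417. For both lists the knockout libraries spread over a wider range than the wildtype libraries, and the lowest knockout library was replicate 3, the library that was the highest of the knockouts for each of the 10 genes but Dnaja3. By DESeq2 and by edgeR endothelial markers passed in 0 of 6 genes (sums 15684 to 17259 and 12751 to 19009), with 1 higher and 1 lower at an unadjusted p under 0.05 by DESeq2. Erythroid markers passed in 0 of 5 by both tools and in 0 at an unadjusted p under 0.05 by DESeq2 (sums 20882 to 27049 and 15231 to 53861). By total counts 7 cardiomyocyte and 2 endothelial markers were lower and 3 fibroblast and 2 macrophage markers higher. Without mitochondrial rRNA in the totals 6 cardiomyocyte markers were lower, and 5 fibroblast, 5 macrophage, 3 endothelial and 3 erythroid markers were higher. Among 5 atrial markers only Nppa, which ventricles also express under stress, was higher and 2 were lower. Their sums were 22320 to 24909 and 35603 to 54641 with Nppa, but 9980 to 12038 and 1268 to 6012 without it, a split made after the values were seen and again lowest in knockout replicate 3. No marker was at the floor of 3 counts in any library. In bulk tissue fewer cells of a type and less RNA per cell cannot be told apart, and the part of cell makeup in the changes of the 10 genes was not tested.

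**Figure D5:**
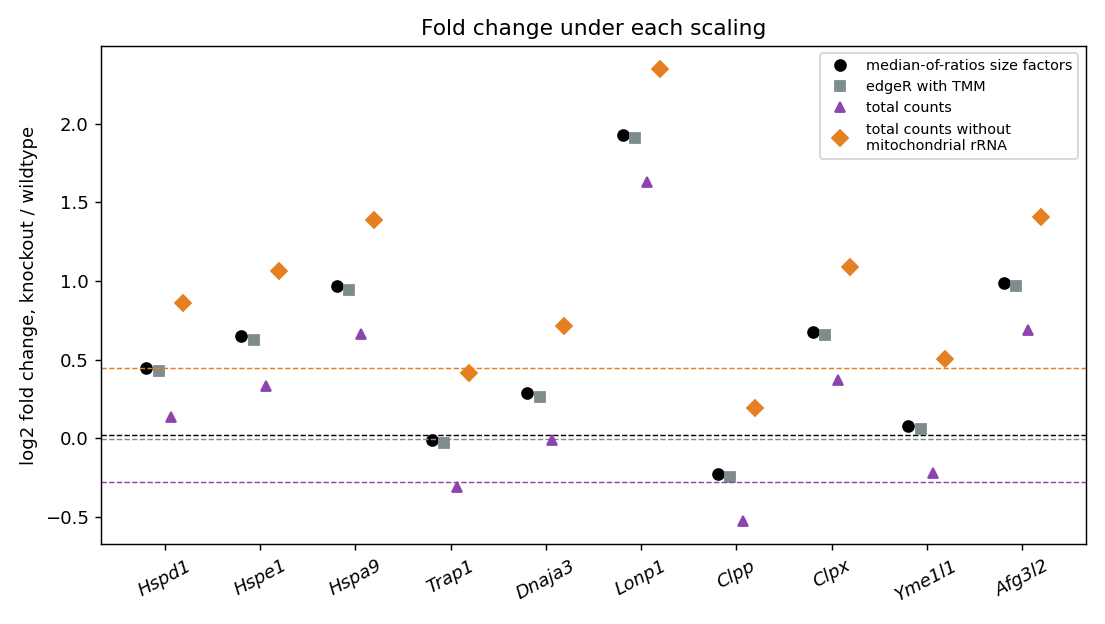
Log2 fold change of each of the 10 genes under 4 scalings (black circles, median-of-ratios; grey squares, edgeR with TMM; purple triangles, total counts; orange diamonds, total counts without mitochondrial rRNA), with a dashed line under each at the median over records with a mean of 10 or more normalised counts. The spacing between the genes stays alike while the whole set moves with the median, from -0.28 to 0.44, and Trap1 lies close to that line in all 4.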

How the data were processed

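Total heart RNA was sequenced in paired-end, reverse-stranded libraries primed with random hexamers, from which cytoplasmic rRNA had been depleted. Per the study's methods and the submitters' processing notes, the authors made the deposited expected counts and TPM values with RSEM 1.2.31 and bowtie2 on GENCODE M13 transcripts (mm10) with their own mitochondrial sequences added. Effective lengths, in bases, are other values deposited by the authors. RSEM divides reads that match several genes. Samples were grouped by their titles. A deposited table of the authors' own comparison and a table of normalised counts, with 8 columns whose names match no label, were not used.

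Expected counts were rounded and fitted in all 8 libraries with DESeq2 1.42.0 in R 4.3.3, with genotype as the only term, effective lengths as an offset and Benjamini-Hochberg adjustment over all records tested (threshold 0.05). Alternatives were edgeR 4.0.16 (quasi-likelihood, TMM), limma 3.58.1 on log2(TPM + 1) for records with a mean TPM of at least 1, no length offset, only records with at least 10 counts in 4 libraries, 3 other scalings, a replicate block, each library left out, and near-identical copies summed. Ratios were tested by exact permutation with adjustment over 5. Intervals are 95% of the fit. GENCODE M21 gave the symbols and the GRCm38 coordinates, and matched 50339 of 50563 Ensembl identifiers. Scripts were tested on simulated data. Libraries of a group differed beyond sampling noise, with a chi-square per degree of freedom of 4.4 to 9.31 between wildtype and 13.5 to 48.4 between knockout libraries. The knockout pairs with replicate 3 were at 33.4 to 48.4. Each library counted as 1 replicate.

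The genes and lists were chosen with earlier results of these data known. Besides the 10 genes, Lrpprc and ratio partners, the text names the 3 largest changes past the threshold in each list and the 3 records most correlated with Hspd1 and with Lonp1 (mean of at least 100 normalised counts, pseudocount 1).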

Additional observations from a re-analysis of the deposited data

Results flagged for a closer look

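Among 36 groups of 4 libraries examined, 4 held a library that stood apart from the other 3 by Dixon's test at the 95% level, where chance gives about 1.8. Wildtype replicate 2 had 2054 normalised counts of Lonp1 beside 2100 to 2107 in the other wildtype libraries, a small gap in a tight group. Wildtype replicate 1 had 1739 counts of Yme1l1 beside 1555 to 1564. Knockout replicate 2 had 504 counts of Lrpprc beside 597 to 605, and thus the least of the targeted transcript. Knockout replicate 3 had 2420 counts of Grpel1 beside 1737 to 1765. That library was also the highest knockout library for each of the 10 genes but Dnaja3, by a margin as small as 2174 against 2169 for Hspe1.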

How the results depend on the processing

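Total-count scaling left 3 of the 10 genes higher and 2 lower, a median log2 fold change of 0.24, and 4 of 26 other chaperones and proteases higher, against 11 in the main analysis. It turned Dnaja3 to -0.012 and Yme1l1 to -0.22. Leaving mitochondrial rRNA out of the totals gave a median of 0.96 and 0 of the 26 lower, against 9, and turned Trap1 to 0.41 and Clpp to 0.20. Both go with the shift of the median gene given in the report. Limma on log2(TPM + 1) called 5 of the 10 higher, Hspd1 (0.29, adjusted p = 0.0652) and Dnaja3 (0.14, adjusted p = 0.29) losing their calls, and 1 lower, Clpp, and turned Yme1l1 to -0.053 (the cause was not tested). Of the 11489 records that limma tested, 2005 were higher and 3132 lower, and the median gene was at -0.07. Lonp1, Hspa9 and Afg3l2 were higher in all 17 alternatives, Clpx and Hspe1 in 16, Hspd1 in 15 and Dnaja3 in 7.

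With 1 library left out, 5 to 9 of the 26 others were lower, 5 without wildtype replicate 1, and 6 without wildtype replicate 4 or knockout replicate 2. Over all records 2504 to 3300 were lower in these fits, of 18210 to 19257 tested. Trap1 ranged from -0.068 to 0.036, the median of the 10 genes from 0.38 to 0.65, the Clpx to Clpp log2 ratio from 0.70 to 0.996 and the Grpel1 to Hspa9 log2 ratio from -0.413 to -0.305. Without any 1 wildtype library the p of both ratios was 0.0571, where the smallest possible p was 0.0286 of 35 assignments.

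Replicate numbers did not pair the samples (r = -0.01, -0.04, -0.07 and 0.07). With a replicate block 6 of the 10 genes were higher and 0 lower, Dnaja3 losing its call (log2 fold change 0.28, adjusted p = 0.095), and 10 of the 26 others were higher. Of the 18483 records tested with that block, 2929 were higher and 2596 lower. In a replicate block of same-numbered pairs the ratios 0.86, -0.69, -0.36 and 1.38 had a p of 0.125, the smallest that 4 pairs allow, so it carries no verdict. Copies of the 10 genes held at most 0.0585% of a gene's count.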
